A study of Mus musculus with 6 samples.

Results

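The genes of TGF-beta, activin and BMP signalling were examined in liver RNA-seq of mice fed an MCD diet for 6 weeks, a diet that lacks methionine and choline and brings on an inflamed fatty liver. The members were the rows of the gene table whose symbol was on a fixed list of ligands, receptors, SMADs, antagonists and direct targets, and all 42 of 42 were found among 34745 genes. All 42 were also among the 14137 genes that passed the filter on low counts. There were 3 libraries labelled Sox9HKO (replicates 9, 10 and 12), also titled HKO, and 3 labelled Sox9f/f (replicates 5, 6 and 8), also titled WT and taken as the control. Every animal of both groups received the diet, so no group on a normal diet enters the comparison. HKO is not spelled out in the labels, and what drives the knockout, which cells it reaches, and the strain, sex and age of the mice were not part of the labels used here. Depth lay between 22826962 and 27286864 counts per library. Whether the libraries of a group came from separate animals is likewise not spelled out, so the p-values measure the spread between these samples.

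Ligands of this family bind pairs of type I and type II receptor kinases at the cell surface. The receptors of TGF-beta and activin phosphorylate SMAD2 and SMAD3, those of BMPs phosphorylate SMAD1, SMAD5 and SMAD9, and both groups enter the nucleus with SMAD4. Follistatins hold ligands in the extracellular space, and SMAD6 and SMAD7, themselves induced by the pathway, restrain the receptors from inside the cell. In the liver, TGF-beta drives stellate cells to make matrix, BMP2 and BMP6 from sinusoidal endothelium set the hepcidin level of hepatocytes, and activin subunits C and E are made by hepatocytes.

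The targeted gene went against its label. Sox9 (ENSMUSG00000000567) had 15.3, 18.1 and 22.7 CPM in the libraries labelled Sox9HKO, against 5.80, 5.31 and 5.80 CPM in those labelled Sox9f/f. CPM are gene counts scaled to the size of each library by the TMM method, and single libraries are listed by replicate number, low to high. The groups did not overlap, with more Sox9 in the libraries labelled Sox9HKO. Whole-gene counts of a mixed tissue do not show which cells or exons carried the reads, so each direction below is one between labels.

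No member of the pathway passed the test over all genes. In edgeR's quasi-likelihood test 0 of 42 members and 0 of 14137 genes (0% of genes tested) had a Benjamini-Hochberg adjusted p under 0.05, and the lowest among the members was 0.139, for Fstl1. At an adjusted p under 0.1 there were again 0 members, and 0.0354% of all genes. Before adjustment 16 members had a p under 0.05 in edgeR, all 16 higher in the libraries labelled Sox9HKO and 0 lower, where over all genes 19.8% passed, 9.74% higher and 10.1% lower. The groups did not overlap for 16 members, again all higher, against 26.5% of all genes, 12.2% higher and 14.3% lower. DESeq2, run as an alternative, called 4 members, all higher (Fst, Fstl1, Smad6 and Smad7), against 4.28% of all genes called (2.31% higher and 1.97% lower), while no member and no gene passed in limma voom (0 of each). The median log2 fold change of the members was 0.26, and 31 of 42 were positive, against a median of 0.0044 and 50.5% positive over all genes. The 16 members at an unadjusted p under 0.05 became 9 after trends on transcript length and GC content were taken out of every library. They became 9 without Sox9HKO replicate 9, 9 without Sox9HKO replicate 10 and 7 without Sox9f/f replicate 8. The share of all genes higher at that threshold moved too, from 9.74% to 6.4% with the trends taken out. Without those libraries it was 8.7%, 6.68% and 6.46%, in the same order. Beside these counts, 10 cholangiocyte markers summed to 157 to 268 CPM in the Sox9HKO libraries, against 77.3 to 97.5 CPM in the Sox9f/f libraries, and 10 hepatocyte markers to 81724 to 87261 CPM in the Sox9HKO libraries, against 98409 to 107206 CPM in the Sox9f/f libraries. Spp1 is the largest term of the cholangiocyte sum and Alb of the hepatocyte sum.

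**Figure D1:**
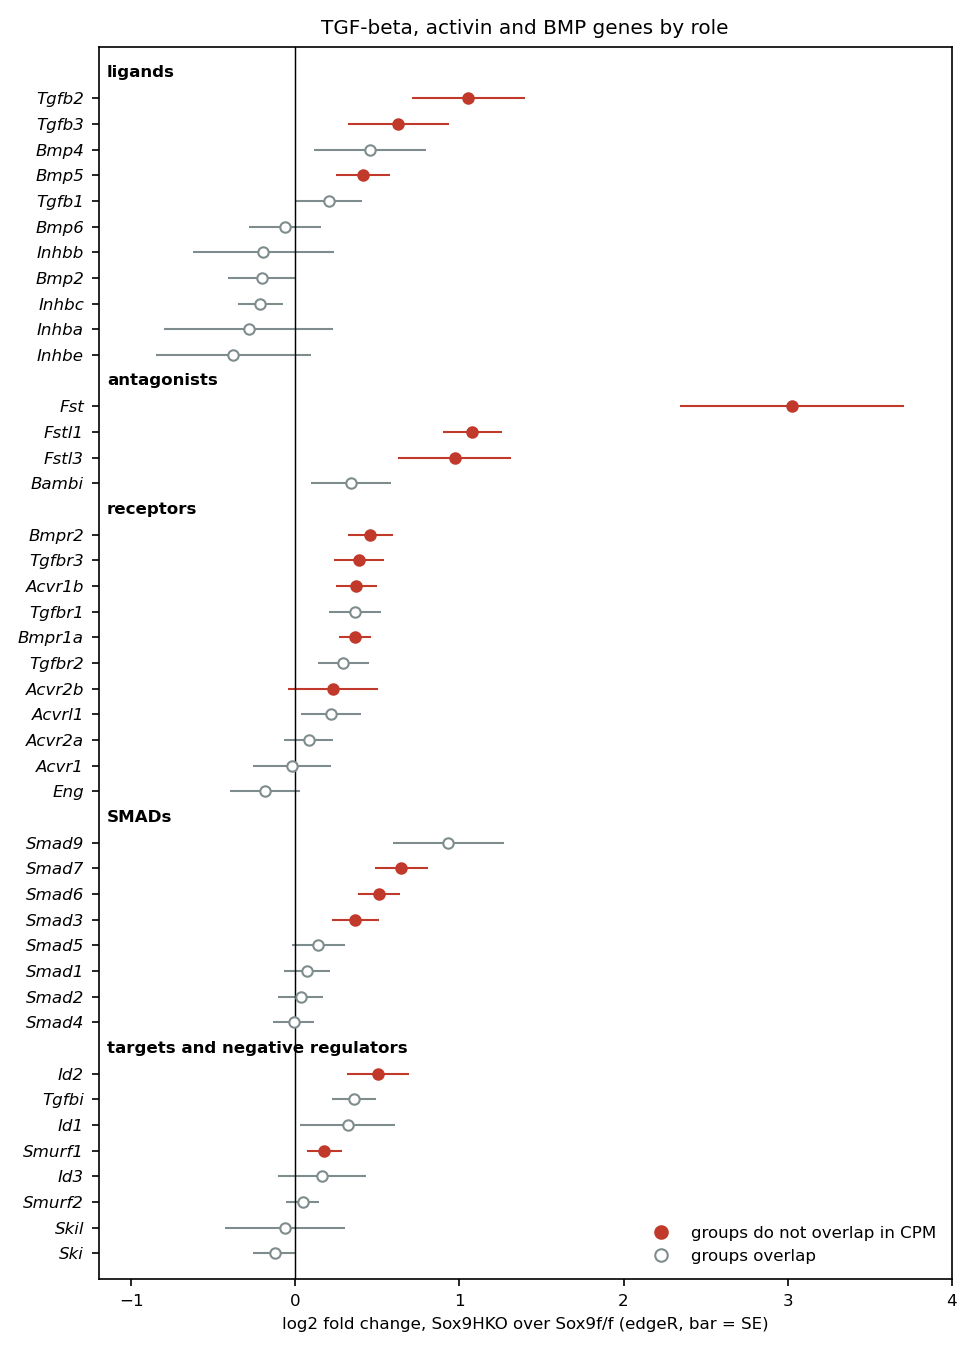
Log2 fold change (horizontal axis, Sox9HKO over Sox9f/f) of each of the 42 genes with its standard error (bar), grouped by role. Filled points mark the 16 genes whose libraries did not overlap between groups, all to the right of 0. Fst lies farthest right at 3.02, and most ligands lie near or left of 0.

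The balance of the roles was uneven. All 4 antagonists had a positive log2 fold change, with a median of 1.02. Of the 11 receptors 9 were positive (median 0.29), and of the 8 SMADs 7 were positive (median 0.25). The 8 targets and negative regulators had 6 positive members and a median of 0.17. Among the 11 ligands 5 were positive and 6 negative, and the median was -0.06.

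The antagonists held the pair of members with the smallest p. Follistatin, encoded by Fst, binds activins and keeps them from their receptors. Fst (ENSMUSG00000021765, chromosome 13 from 114452262 to 114458730, minus strand, GRCm38) had 2.69, 2.54 and 10.9 CPM in the libraries labelled Sox9HKO, against 0.319, 0.654 and 0.974 CPM in those labelled Sox9f/f. Each of the first 3 lay above each of the last 3, and Sox9HKO replicate 12, which also had the highest sum of cholangiocyte markers, stood far above the rest of its group. The counts behind these values were 72, 69 and 299 in the Sox9HKO libraries, against 7, 17 and 24 in the Sox9f/f libraries. The log2 fold change of Sox9HKO over Sox9f/f, given with its SE here and after each gene below, was 3.02 ± 0.68, with an adjusted p of 0.144 in edgeR and 2.73e-04 in DESeq2, and a range over all alternatives of 2.73e-04 to 0.353. Without Sox9HKO replicate 12 the log2 fold change was 1.98, with voom it was 2.27, and on the log2(FPKM + 0.5) scale it was 1.69.

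Fstl1 encodes a secreted follistatin-like glycoprotein made by mesenchymal cells. Fstl1 (ENSMUSG00000022816, chromosome 16 from 37776873 to 37836514, plus strand) had 25.6, 28.7 and 19.8 CPM in the Sox9HKO libraries, against 13.5, 11.5 and 10.1 CPM in the Sox9f/f libraries. The lowest of the first group stood well clear of the highest of the second. Its log2 fold change was 1.08 ± 0.18 (SE), with an adjusted p of 0.139 in edgeR and 1.24e-04 in DESeq2 (1.24e-04 to 0.353 over all alternatives). Fstl3, a follistatin relative that also binds activins, had 1.79, 1.66 and 1.74 CPM in the Sox9HKO libraries, against 1.19, 0.539 and 0.933 CPM in the Sox9f/f libraries. Fstl3 did not overlap between groups (0.97 ± 0.35), at a low level, and shares 1157 bases with Prss57 on the other strand, so if counting ignored strand, reads of Fstl3 and Prss57 are mixed in this value. Bambi, a pseudoreceptor that lacks a kinase domain, had 10.1, 9.43 and 6.57 CPM in the Sox9HKO libraries, against 6.07, 8.89 and 5.68 CPM in the Sox9f/f libraries, and these overlapped (0.34 ± 0.24, and 0.15 without the trends on length and GC content).

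Set against the activin chains it can bind, Fst differed in proportion as well. The FPKM of Fst divided by the summed FPKM of Inhba and Inhbb within a library was 0.547, 0.478 and 0.988 in the Sox9HKO libraries, against 0.0312, 0.0837 and 0.149 in the Sox9f/f libraries. FPKM are scaled by transcript length as well as depth, so they allow levels of different genes to be compared. The ratio did not overlap between groups, and its means were 0.671 ± 0.277 in the Sox9HKO libraries and 0.0878 ± 0.0588 in the Sox9f/f libraries (SD, n = 3 each). Since Fst entered it as a gene already seen to differ, the ratio is a description and was not tested.

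**Figure D2:**
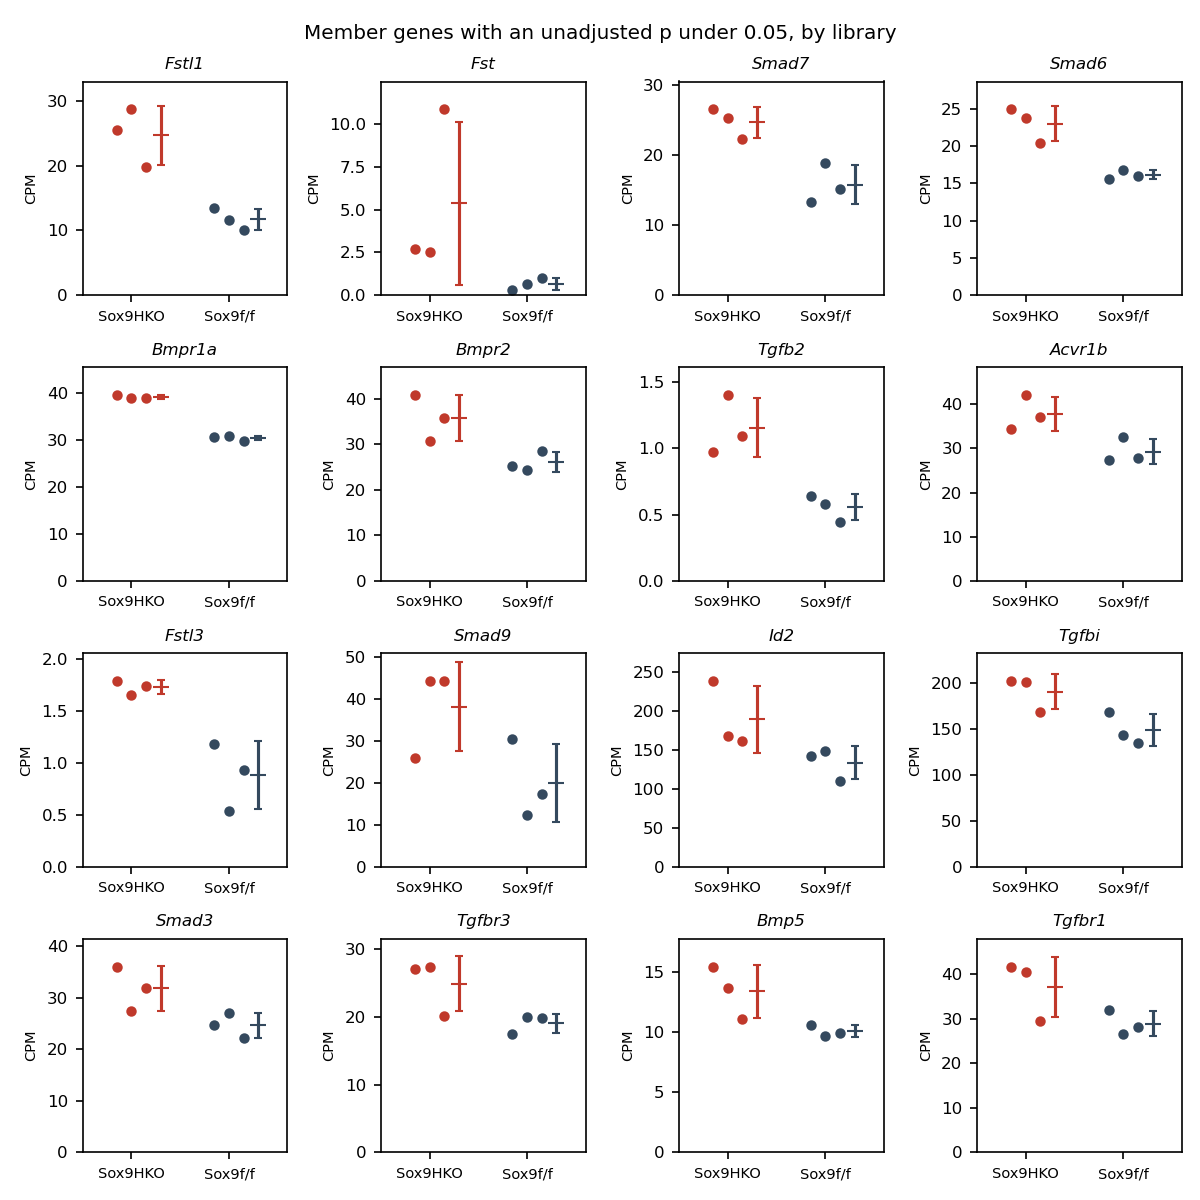
CPM of the 16 members with an unadjusted p under 0.05, 1 panel per gene in order of p, with Sox9HKO libraries left and Sox9f/f libraries right. Points are libraries, dashes and bars are mean and SD of 3. Fst shows 1 Sox9HKO library at 10.9 CPM far above the other two, Bmpr1a has the narrowest spread, and Smad9, Tgfbi and Tgfbr1 are the panels whose groups overlap.

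Ligand levels were led by hepatocyte activin chains. On the FPKM scale Inhbe and Inhbc averaged 64.7 and 51.0 over the 6 libraries, with overlapping ranges, and the next ligand, Bmp2, averaged 8.88. Together, Inhbc and Inhbe gave 77.5% ± 2.29 of the summed FPKM of the 11 ligands in the Sox9HKO libraries and 79.7% ± 7.72 in the Sox9f/f libraries (SD, n = 3 each). Bmp2, Bmp6 (6.62) and Tgfb1 (6.48) formed the next tier, each overlapping its neighbour, followed by Bmp5 (2.80) and Inhbb (2.61). Tgfb3 (1.08), Inhba (0.646), Bmp4 (0.453) and Tgfb2 (0.0951) stood lowest.

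Inhbe, which encodes the beta E chain of activin and is induced under endoplasmic reticulum stress, had 152, 134 and 75.7 CPM in the Sox9HKO libraries, against 88.2, 290 and 92.4 CPM in the Sox9f/f libraries. A single library, Sox9f/f replicate 6, set the sign of this gene. The log2 fold change was -0.38 ± 0.47 with it and 0.44 without it. Inhbc, the beta C chain, had 89.9, 105 and 84.1 CPM in the Sox9HKO libraries, against 93.3, 111 and 119 CPM in the Sox9f/f libraries, and the groups overlapped (-0.22 ± 0.14). Both genes lie under the antisense gene Gm47200, so the same limit on strand holds for them. Inhba, the beta A chain of activin A, was likewise highest in Sox9f/f replicate 6, at 3.89 CPM, and its log2 fold change was -0.29 ± 0.51 with that library and 0.50 without it. Inhbb, the beta B chain, had 6.98, 6.48 and 17.7 CPM in the Sox9HKO libraries, against 17.4, 8.70 and 9.62 CPM in the Sox9f/f libraries, so that 1 library of each group stood well above the rest. Inhbb had a log2 fold change of -0.20 ± 0.43, and of -0.82 without Sox9HKO replicate 12.

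The fold changes of the 3 TGF-beta isoforms ran in the reverse order of their FPKM. Tgfb1, the main isoform of inflamed tissue, had the highest level and overlapped between groups (log2 fold change 0.20 ± 0.20). Tgfb2 had 0.970, 1.399 and 1.09 CPM in the Sox9HKO libraries, against 0.639, 0.577 and 0.446 CPM in the Sox9f/f libraries, from 26, 38 and 30 counts in the Sox9HKO libraries, against 14, 15 and 11 in the Sox9f/f libraries. The groups did not overlap (1.05 ± 0.34), at a depth where each library rests on few reads. On the log2(FPKM + 0.5) scale the same gene gave 0.18, since the pseudocount exceeds its level. Tgfb3 had 4.70, 3.98 and 4.46 CPM in the Sox9HKO libraries, against 3.19, 3.69 and 1.62 CPM in the Sox9f/f libraries, without overlap (0.63 ± 0.31), and shares 5149 bases with Ttll5 on the other strand. Neither isoform passed the test, with adjusted p of 0.176 for Tgfb2 and 0.301 for Tgfb3 in edgeR.

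Of the 4 BMP ligands, Bmp5 alone had groups that did not overlap. Bmp5 had 15.4, 13.6 and 11.03 CPM in the Sox9HKO libraries, against 10.6, 9.66 and 9.90 CPM in the Sox9f/f libraries (0.41 ± 0.16). The lowest of the Sox9HKO values lay just above the highest of the controls. Without the trends on length and GC content its log2 fold change was 0.24. Bmp2 and Bmp6, the endothelial ligands of iron regulation, stood at -0.21 ± 0.21 and -0.06 ± 0.22, and both were lowest in Sox9HKO replicate 12, at 21.4 and 11.4 CPM. Bmp4 stood at 0.45 ± 0.34 with overlapping groups.

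**Figure D3:**
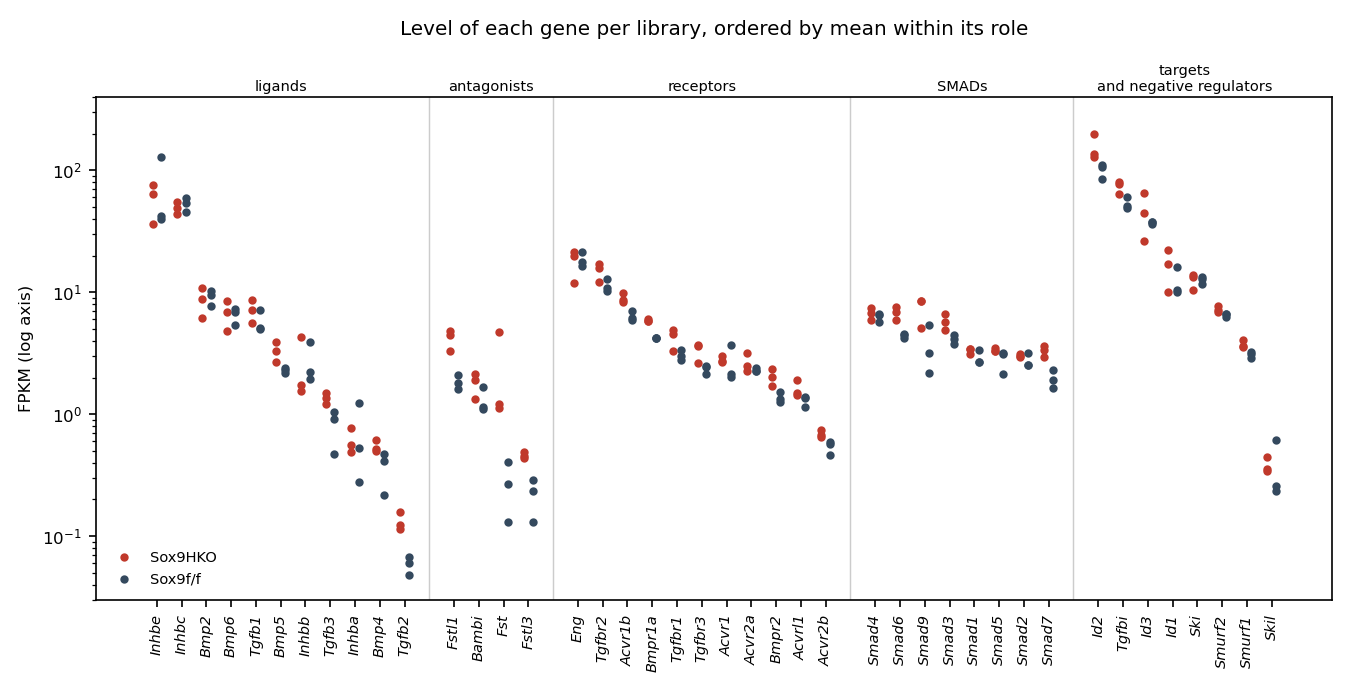
FPKM of each gene per library on a log axis, ordered by its mean over the 6 libraries within its role, with Sox9HKO points left of Sox9f/f points. Inhbe and Inhbc lead the ligands, Eng and Tgfbr2 the receptors, Smad4 and Smad6 the SMADs, and Id2 and Tgfbi the targets, while Tgfb2 stands lowest of all.

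The receptors had small, mostly positive fold changes, and the BMP pair had the smallest p among them. Bmpr1a, a type I BMP receptor, had 39.6, 39.0 and 38.9 CPM in the Sox9HKO libraries, against 30.6, 30.9 and 29.9 CPM in the Sox9f/f libraries. Within each group the values differed by less than 1 CPM, and the means were 39.2 ± 0.362 CPM in the Sox9HKO libraries and 30.5 ± 0.499 CPM in the Sox9f/f libraries (SD, n = 3 each). The log2 fold change of 0.36 ± 0.10 had an adjusted p of 0.151 in edgeR. Bmpr2, the type II receptor of BMPs, had 40.8, 30.7 and 35.9 CPM in the Sox9HKO libraries, against 25.3, 24.4 and 28.5 CPM in the Sox9f/f libraries (0.46 ± 0.14). With the trends on length and GC content taken out, Bmpr1a stood at 0.11 and Bmpr2 at 0.08.

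The promoters of both receptor genes are shown because of their rank by p among the members with a window. Both hold the same short GC-rich word. They are RefSeq windows on GRCm38.p6 from 250 bases before to 50 bases after the annotated start, written 5′ to 3′ on the gene's strand. Capitals mark GGCGCC, the palindromic core of the BMP response element known from the Id1 gene. Bmpr1a (chr14:34502497-34502796, minus strand) holds it at base -198 and Bmpr2 (chr1:59764029-59764328, plus strand) at base -105, counted from the start site.
Bmpr1a: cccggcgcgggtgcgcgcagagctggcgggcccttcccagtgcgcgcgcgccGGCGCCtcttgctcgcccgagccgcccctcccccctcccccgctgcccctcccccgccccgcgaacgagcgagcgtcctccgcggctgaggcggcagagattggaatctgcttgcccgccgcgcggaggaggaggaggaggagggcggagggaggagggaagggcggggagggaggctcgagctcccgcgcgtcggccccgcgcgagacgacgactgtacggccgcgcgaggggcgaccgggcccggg
Bmpr2: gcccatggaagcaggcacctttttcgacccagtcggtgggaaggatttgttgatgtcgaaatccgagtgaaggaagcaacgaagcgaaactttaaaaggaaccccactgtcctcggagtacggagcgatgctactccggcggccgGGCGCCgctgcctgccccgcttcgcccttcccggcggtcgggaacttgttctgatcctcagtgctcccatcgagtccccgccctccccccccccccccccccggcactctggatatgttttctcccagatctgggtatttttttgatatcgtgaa
The table of promoters held 34 windows for 31 of the 42 members. On either strand, GGCGCC occurred in 11 of these 34 windows (32.4%) and in 11.9% of 32851 windows of all genes. Besides Bmpr1a and Bmpr2, the members holding it were Smad9, Tgfbr1, Ski, Smurf2, Id2, Tgfbi, Smad5 and Acvr1b. No account was taken of base composition, in which promoters differ, and a match is a match of letters only.

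Among the TGF-beta and activin receptors, Tgfbr3 and Acvr1b had groups that did not overlap. Tgfbr3, the betaglycan that presents TGF-beta2 to the signalling receptors, had 27.1, 27.4 and 20.2 CPM in the Sox9HKO libraries, against 17.4, 19.9 and 19.8 CPM in the Sox9f/f libraries (0.39 ± 0.15). Its lowest Sox9HKO value exceeded its highest control by a narrow margin. Acvr1b, the type I receptor ALK4 of activin, had 34.5, 42.1 and 37.2 CPM in the Sox9HKO libraries, against 27.4, 32.7 and 27.9 CPM in the Sox9f/f libraries (0.37 ± 0.13). Tgfbr1, the type I receptor ALK5, had 41.7, 40.4 and 29.5 CPM in the Sox9HKO libraries, against 31.9, 26.7 and 28.0 CPM in the Sox9f/f libraries (0.36 ± 0.16), where Sox9HKO replicate 12 lay inside the control range. Tgfbr2, the type II receptor of TGF-beta, had 70.7, 80.1 and 57.1 CPM in the Sox9HKO libraries, against 51.3, 65.2 and 53.4 CPM in the Sox9f/f libraries, and the groups overlapped (0.29 ± 0.16). With the same trends taken out, Tgfbr1 stood at 0.12, Tgfbr2 at 0.09 and Tgfbr3 at 0.22, while Acvr1b stood at 0.34.

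Activin type II receptors were nearer to 0. Acvr2b had 1.38, 1.58 and 1.38 CPM in the Sox9HKO libraries, against 1.05, 1.31 and 1.34 CPM in the Sox9f/f libraries, separated by less than the spread inside either group (0.23 ± 0.28). Acvr2a stood at 0.08 ± 0.15. Acvr1, the type I receptor ALK2, stood at -0.02 ± 0.24 and was highest in Sox9f/f replicate 6, at 27.2 CPM, without which it stood at 0.34.

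The endothelial receptors showed no separation. Eng, or endoglin, a co-receptor of endothelial cells, had the highest FPKM of the receptors at 18.1. Eng had 146, 141 and 84.7 CPM in the Sox9HKO libraries, against 164, 127 and 132 CPM in the Sox9f/f libraries, and Sox9HKO replicate 12 was the lowest of the 6 (-0.19 ± 0.21, and 0.02 without that library). Acvrl1, the endothelial type I receptor ALK1, stood at 0.22 ± 0.18 with overlapping groups.

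Among the SMADs, the inhibitory pair had the smallest p. Smad7, which blocks TGF-beta and BMP receptors and brings ubiquitin ligases to them, had 26.5, 25.2 and 22.2 CPM in the Sox9HKO libraries, against 13.3, 18.8 and 15.1 CPM in the Sox9f/f libraries. Smad6, which acts mainly on BMP receptors, had 25.0, 23.8 and 20.4 CPM in the Sox9HKO libraries, against 15.6, 16.8 and 16.1 CPM in the Sox9f/f libraries. Neither gene overlapped between groups, and all Sox9HKO libraries lay above all controls. The log2 fold changes were 0.65 ± 0.16 for Smad7 (adjusted p 0.144 in edgeR and 0.0279 in DESeq2) and 0.51 ± 0.13 for Smad6 (0.146 and 0.0365). Over all alternatives the adjusted p ranged from 0.0279 to 0.353 for Smad7 and from 0.0365 to 0.353 for Smad6. Unlike the BMP receptors, Smad6 and Smad7 stood at 0.59 and 0.65 under the same removal of trends.

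Smad6 (ENSMUSG00000036867, chromosome 9 from 63953076 to 64022059, minus strand) and Fstl1 were among the members of smallest p, and their promoter windows are shown. Fst and Smad7 had a smaller unadjusted p in edgeR (0.00221 and 0.00376) than Smad6 (0.00395), but no window of theirs is shown. The choice of windows thus did not follow the order of p alone. The Smad6 window (chr9:64022010-64022309, minus strand) is shown because of the rank of Smad6 by p. It holds GTCTAGAC, the palindromic SMAD-binding element, which starts at base -4 and so spans the annotated start site. Capitals mark that element. The Fstl1 window (chr16:37776805-37777104, plus strand) is set beside it as the window of the member with the smallest p, and holds none of the words searched.
Smad6: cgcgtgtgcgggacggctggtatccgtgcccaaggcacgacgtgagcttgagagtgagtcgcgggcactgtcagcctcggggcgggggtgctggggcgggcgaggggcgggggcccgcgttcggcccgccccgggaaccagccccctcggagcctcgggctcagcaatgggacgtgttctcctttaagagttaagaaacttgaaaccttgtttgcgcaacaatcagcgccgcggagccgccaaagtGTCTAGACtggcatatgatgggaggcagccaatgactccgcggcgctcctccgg
Fstl1: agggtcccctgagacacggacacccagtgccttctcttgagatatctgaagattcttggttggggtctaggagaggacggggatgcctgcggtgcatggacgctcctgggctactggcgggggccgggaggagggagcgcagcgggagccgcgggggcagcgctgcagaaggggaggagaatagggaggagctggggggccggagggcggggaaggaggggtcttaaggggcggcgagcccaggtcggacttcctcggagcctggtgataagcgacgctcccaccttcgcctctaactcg
GTCTAGAC occurred in 1 of the 34 member windows, that of Smad6, and in 70 of 32851 windows of all genes (0.213%). Besides GTCTAGAC and GGCGCC, the words searched on both strands were CAGACA, known as the CAGA box, and ACAATGG, a SOX-type word. CAGACA occurred in 7 member windows (20.6%) and in 6913 of 32851 windows of all genes. The word ACAATGG occurred in 1 member window, that of Fstl3, and in 3.66% of all windows. No word searched contains another, and the search does not show whether any factor bound there.

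The receptor-activated SMADs were divided. Smad9, which encodes a BMP SMAD also called SMAD8, had 25.9, 44.4 and 44.2 CPM in the Sox9HKO libraries, against 30.4, 12.4 and 17.3 CPM in the Sox9f/f libraries. Sox9HKO replicate 9 lay below Sox9f/f replicate 5, so the groups overlapped in spite of a log2 fold change of 0.93 ± 0.34 (adjusted p 0.201 in edgeR). Smad3, a mediator of TGF-beta signals to collagen genes, had 36.0, 27.4 and 31.9 CPM in the Sox9HKO libraries, against 24.7, 27.05 and 22.2 CPM in the Sox9f/f libraries, without overlap by a narrow margin (0.37 ± 0.14). Smad1, Smad2 and Smad5 stood at 0.07 ± 0.14, 0.03 ± 0.14 and 0.14 ± 0.16. Smad4, the shared partner, had 36.1, 33.2 and 41.7 CPM in the Sox9HKO libraries, against 38.7, 34.5 and 38.6 CPM in the Sox9f/f libraries, a log2 fold change of -0.01 ± 0.12 whose sign turned with the scaling. The summed FPKM of Smad6 and Smad7 divided by that of Smad1, Smad2, Smad3, Smad5 and Smad9 was 0.519, 0.445 and 0.372 in the Sox9HKO libraries, against 0.347, 0.434 and 0.399 in the Sox9f/f libraries. In that ratio the groups overlapped, so inhibitory SMADs were not separated from receptor SMADs within a library.

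Target genes gave a mixed picture. The Id genes encode inhibitors of basic helix-loop-helix factors and answer to BMP signals. Id2 had 239, 168 and 161 CPM in the Sox9HKO libraries, against 142, 149 and 110 CPM in the Sox9f/f libraries, without overlap (0.50 ± 0.19, adjusted p 0.207 in edgeR). Id1 had 43.9, 34.5 and 20.6 CPM in the Sox9HKO libraries, against 35.0, 22.0 and 22.4 CPM in the Sox9f/f libraries. Id3 had 140, 99.2 and 58.7 CPM in the Sox9HKO libraries, against 87.0, 90.3 and 89.0 CPM in the Sox9f/f libraries. Both overlapped, at 0.32 ± 0.29 and 0.16 ± 0.27, and both were highest in Sox9HKO replicate 9 and lowest in Sox9HKO replicate 12. For Id3 the 3 controls lay close together while the Sox9HKO libraries spread on both sides of them. Tgfbi, a matrix protein induced by TGF-beta, had 202, 201 and 168 CPM in the Sox9HKO libraries, against 169, 144 and 134 CPM in the Sox9f/f libraries (0.36 ± 0.13), overlapping by a near tie of Sox9HKO replicate 12 with Sox9f/f replicate 5.

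The negative regulators inside the nucleus and at the receptor differed little. Ski and Skil, corepressors that bind SMADs, stood at -0.13 ± 0.13 and -0.07 ± 0.37, and Skil was highest in Sox9f/f replicate 6, at 13.3 CPM, without which it stood at 0.54. Smurf1, a ubiquitin ligase that removes SMADs and receptors, had 39.8, 36.8 and 37.4 CPM in the Sox9HKO libraries, against 34.2, 35.4 and 31.2 CPM in the Sox9f/f libraries, without overlap but by a small step (0.18 ± 0.11). Its relative Smurf2 stood at 0.04 ± 0.10.

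Other genes of the pathway were read from lists set up beside the members. None of their genes passed over all genes in edgeR. Among 15 tested genes of latency and activation, the proteins that store TGF-beta in matrix and release it, 6 were higher and 1 lower at an unadjusted p under 0.05 (9.74% and 10.1% of all genes), and the median was 0.36. The latent TGF-beta binding protein Ltbp2 had 6.86, 8.10 and 4.61 CPM in the Sox9HKO libraries, against 3.51, 2.23 and 2.11 CPM in the Sox9f/f libraries (1.32 ± 0.30). Ltbp1 stood at 0.62 ± 0.17, also without overlap. DESeq2 called 3 of the latency genes, all higher (2.31% of all genes).

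Of 23 other target genes 9 were higher and 1 lower at an unadjusted p under 0.05 (9.74% and 10.1% of all genes), with a median of 0.58. DESeq2 called 8 of them, all higher, against 2.31% of all genes. Ltbp2 stands on this list too, and Col1a1 is also one of the stellate markers below. Collagen gene Col1a1 had 64.3, 79.3 and 40.2 CPM in the Sox9HKO libraries, against 32.3, 16.4 and 20.7 CPM in the Sox9f/f libraries (1.41 ± 0.31). Loxl2, which crosslinks collagen, stood at 0.89 ± 0.20. The hepcidin gene Hamp, the BMP target of iron regulation, named after its values were seen, had 966, 1108 and 707 CPM in the Sox9HKO libraries, against 598, 458 and 988 CPM in the Sox9f/f libraries, and these overlapped (0.45 ± 0.29). Its paralog Hamp2, likewise named afterwards and the lower gene counted above, had 17.2, 8.32 and 23.9 CPM in the Sox9HKO libraries, against 80.9, 26.0 and 22.7 CPM in the Sox9f/f libraries, and these overlapped too (-1.39 ± 0.54). How reads were divided between these similar genes is not known.

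The remaining lists held less. Of 21 tested intracellular regulators 2 were higher and 1 lower at an unadjusted p under 0.05 (9.74% and 10.1% of all genes), with a median of 0.07. DESeq2 called 1 of them, Pmepa1, as higher (adjusted p 0.0341), against 2.31% of all genes. Pmepa1, a TGF-beta target that restrains SMAD2 and SMAD3, had 6.98, 7.51 and 5.73 CPM in the Sox9HKO libraries, against 4.24, 3.81 and 4.14 CPM in the Sox9f/f libraries (0.73 ± 0.18), and Fkbp1a, which holds type I receptors inactive, stood at -0.55 ± 0.22. Only 6 of 16 extracellular BMP antagonists passed the count filter. At an unadjusted p under 0.05 in edgeR 1 was higher, Twsg1 at 0.32 ± 0.12, and 1 lower, Chrd, or chordin, at -0.52 ± 0.22 (9.74% and 10.1% of all genes). Of 20 other ligands 9 were tested and 0 had an unadjusted p under 0.05 (19.8% of all genes), with Gdf6 at 0.92 ± 0.40 and Bmp8b at 0.69 ± 0.35. Of 12 other receptors and co-receptors 8 were tested and 0 had an unadjusted p under 0.05 (19.8% of all genes), with Tfr2 at -0.31 ± 0.14 and Rgma at 0.58 ± 0.35.

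Marker lists of cell types differed between the groups beside these genes. The cholangiocyte markers, Sox9 among them, summed to 157, 199 and 268 CPM in the Sox9HKO libraries, against 93.5, 97.5 and 77.3 CPM in the Sox9f/f libraries. Their sum was highest in Sox9HKO replicate 12, the library with the most Fst. Spp1 is its largest term, with means of 127 CPM in the Sox9HKO libraries and 46.7 CPM in the Sox9f/f libraries. By single gene 7 of the 9 tested were higher without overlap (12.2% of all genes), and Krt7 and Krt19 overlapped. All 10 hepatocyte markers were detected, as the liver label has it. Their sum, of which Alb is the largest term, did not overlap between groups and was lower in the Sox9HKO libraries. By single gene only 4 of the 10 did not overlap, all lower (14.3% of all genes). The 12 stellate and fibroblast markers summed to 620 to 748 CPM in the Sox9HKO libraries, against 500 to 623 CPM in the Sox9f/f libraries. The 12 macrophage markers summed to 864 to 1434 CPM in the Sox9HKO libraries, against 652 to 923 CPM in the Sox9f/f libraries, and both lists overlapped. At an unadjusted p under 0.05 in edgeR 5 of the 12 stellate markers and 0 of the 12 macrophage markers were higher, against 9.74% of all genes. All 12 macrophage markers had a positive log2 fold change, with a median of 0.50, and 11 of 12 stellate markers did, with a median of 0.24. The 13 sinusoidal endothelial markers summed to 632, 760 and 483 CPM in the Sox9HKO libraries, against 595 to 668 CPM in the Sox9f/f libraries, and were lowest in Sox9HKO replicate 12, where 9 members were lowest as well (Eng, Bmp2, Bmp6, Id1, Id3, Inhbc, Inhbe, Acvr2a and Ski). Acvrl1 was not, with 9.11 CPM in that library, the second highest of the 6. The 8 lymphocyte markers summed to 3.96 to 6.45 CPM in the Sox9HKO libraries, against 2.23 to 4.61 CPM in the Sox9f/f libraries, and the groups overlapped. In bulk liver fewer cells of a type and less RNA per cell cannot be told apart. The part of these markers in the values of the pathway genes was not tested.

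**Figure D4:**
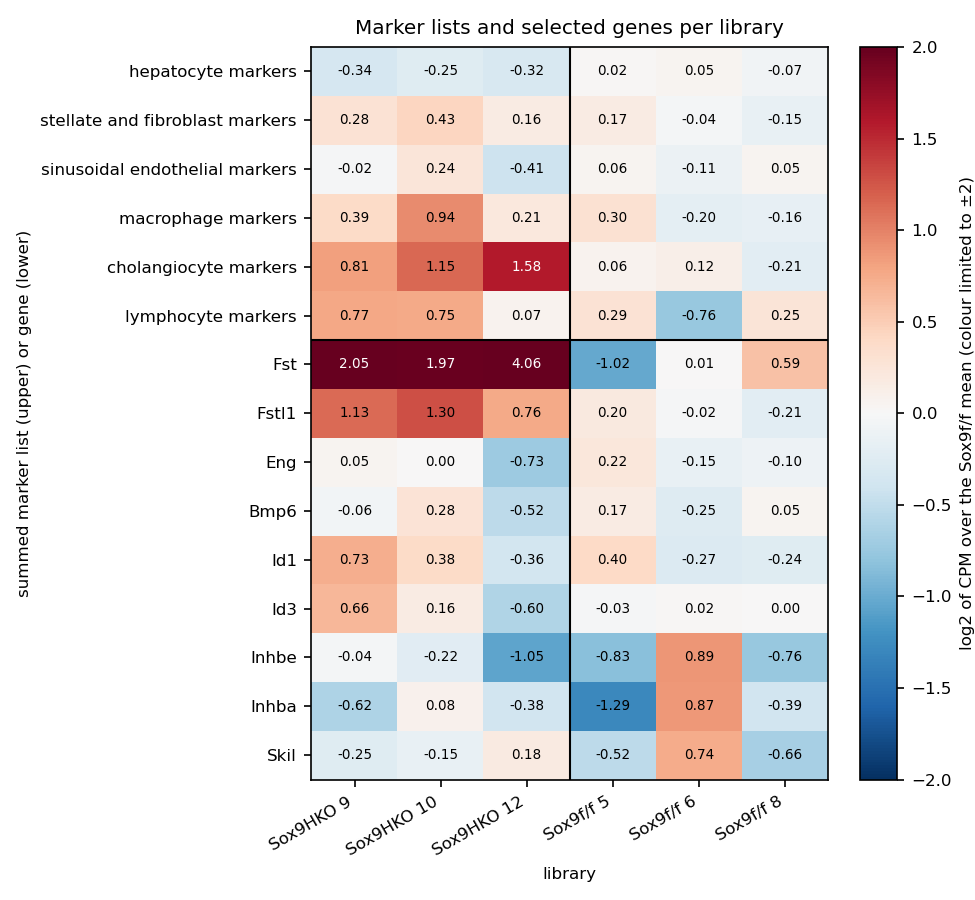
Log2 of the summed CPM of 6 marker lists (upper rows) and of the CPM of 9 genes (lower rows) over the Sox9f/f mean, in each of the 6 libraries (columns, Sox9HKO left). Sox9HKO replicate 12 combines the highest cholangiocyte sum (1.58) and Fst (4.06) with the lowest endothelial sum (-0.41) and Eng (-0.73), and Sox9f/f replicate 6 has the highest Inhbe, Inhba and Skil.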

How the data were processed

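RNA-seq of mouse liver was analysed in 6 libraries, 3 labelled Sox9HKO and 3 labelled Sox9f/f, grouped by the genotype label. No replicate number occurs in both groups. Per the file headers, the authors' table holds gene counts, not normalized, and FPKM for 34745 genes. The deposited FPKM of a gene equalled its count over a fixed length and the library total, to within 0.00111% over 10962 genes. The submitters' processing notes name HISAT2 2.0.4, StringTie 1.3.0, mm10 and GRCm38.p4, without their roles. Neither the counting tool nor its handling of strand was named there or in the labels.

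The test was that of edgeR 4.0.16 under R 4.3.3, on counts (filterByExpr, TMM, robust quasi-likelihood test, no covariate), adjusted over 14137 genes, and called at 0.05. Library pairs differed by a chi-square of at least 35.1 per degree of freedom. Alternatives were DESeq2 1.42.0, limma 3.58.1 (voom, and log2(FPKM + 0.5)), other scalings and filters, a non-robust fit, removal of length and GC trends (splines with 4 degrees of freedom, GENCODE M21), and each library left out. Scripts were tested on simulated data. Sequences are from RefSeq (GRCm38.p6).

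The members and lists were chosen with earlier results of these data known. Values of every library are given for members with an unadjusted p under 0.05 or groups that do not overlap and for the highest pair of each role in FPKM. Of each pathway list the pair of smallest p is named, and genes of these lists named otherwise are marked. Results counted at an unadjusted p, or by overlap, were added after the data were seen.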

Additional observations from a re-analysis of the deposited data

How the results depend on the processing

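No paired analysis was possible because the groups share no replicate number. The calls at an adjusted p under 0.05 (0 members, 0 genes) became 4 members and 605 genes with DESeq2, 10 genes without a filter and 5 genes at an adjusted p under 0.1. Leaving out each library gave 0 to 3 genes and 0 members. The member median of 0.26 was 0.35 with voom and 0.19 to 0.37 with a library left out. It was 0.37 with library-size scaling, which shifts the median of all genes by 0.11. With length and GC trends removed the member median was 0.14, and that removal shifts the median of all genes by -0.051. The 16 members higher at an unadjusted p under 0.05 (9.74% of all genes) became 9 with those trends removed (6.4% of all genes). With a library left out they became 7 to 17 (6.46% to 11.1% of all genes). The members lower at that threshold numbered 0 in all of these but the fit without Sox9HKO replicate 12, which gave 1. Among all genes that threshold gave 1377 higher and 1423 lower, but 2224 and 601 with library-size scaling. The cause of these moves was not tested.

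Over 16 settings 29 of 42 members kept their sign, 26 positive and 3 negative. Signs turned for Bmp6 (0.051 with voom, 0.046 with library-size scaling, 0.020 on FPKM), Acvr1 (0.023 with voom, 0.023 with upper-quartile scaling, 0.090 with library-size scaling, 0.12 on FPKM), Smad4 (0.040 with upper-quartile and 0.098 with library-size scaling, 0.00089 with the stricter filter, 0.088 on FPKM) and Skil (0.047 with library-size scaling, 0.046 on FPKM). With trends removed they turned for Acvr2a (-0.17), Smad2 (-0.24, and -0.00056 with voom), Smad5 (-0.095) and Smurf2 (-0.12). With a library left out the ranges were -0.65 to 0.50 for Inhba, -0.82 to 0.19 for Inhbb, -0.66 to 0.44 for Inhbe, -0.27 to 0.12 for Bmp6, -0.18 to 0.34 for Acvr1, -0.050 to 0.16 for Acvr2a, -0.32 to 0.020 for Eng, -0.012 to 0.13 for Smad2, -0.11 to 0.068 for Smad4, -0.019 to 0.26 for Smad5, -0.17 to 0.43 for Id3, -0.31 to 0.54 for Skil and -0.013 to 0.081 for Smurf2. Low counts limit Tgfb2, Fstl3 and Acvr2b, under 50 counts in all 6 libraries, and Fst, Inhba, Bmp4 and Tgfb3, under 50 in some.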

Other observations

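The libraries contributed unevenly to the extremes of the 42 genes. Sox9HKO replicate 9 held the highest CPM of 16 members and the lowest of 0, whereas Sox9HKO replicate 12 held the highest of 5 and the lowest of 9. Sox9f/f replicate 8 held the lowest of 14 and Sox9f/f replicate 5 of 11. These counts cover the members only, with no count over all genes beside them, so they are not particular to the members. Sox9f/f replicate 6 held the highest of 6 members, among them Inhbe at 1.91 times, Inhba at 1.73 times, Skil at 1.48 times and Acvr1 at 1.39 times the next library. Fst in Sox9HKO replicate 12 stood 4.04 times above the next library, the largest such step among the 42. The members together took 0.200%, 0.183% and 0.151% of counts in the libraries labelled Sox9HKO, against 0.145%, 0.161% and 0.138% in those labelled Sox9f/f, which overlap.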
